A study of Mus musculus with 20 samples.

Results

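Collagens are the triple-helical proteins of the extracellular matrix, and each is built from chains encoded by their own genes. The set described here is the collagen chain genes, taken as every row of the deposited table whose gene name is Col, a number, the letter a and a number. The table holds 44 such genes among 36724, and 21 of the 44 reached the expression level required for testing (at least 0.5 RPKM in at least 3 of 20 libraries). The 44 genes comprise 11 fibrillar chains, 6 type IV chains of basement membranes, 9 fibril-associated (FACIT) chains, 7 chains of type VI and related collagens, 4 transmembrane chains, 3 short-chain network chains, 2 multiplexins, the type VII chain and Col26a1.

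RNA was sequenced from neurospheres, which are free-floating clusters of neural stem and progenitor cells, grown from adult C57BL6 mice of 8 to 12 weeks. Untreated spheres grew in stem cell medium supplemented with B27 and with EGF and FGF (20 ng/ml), in every group alike. SVZ spheres came from the subventricular zone at culture day 3, with 3 libraries from Egfl7 knockout mice and 3 from wild types, all male and of sphere round 1. Hippocampal spheres were taken at day 5 in sphere round 1 (HC1, 3 knockout libraries from males and 3 wild-type libraries from females) and in round 2 (HC2, 4 and 4 libraries, all from males). The labels name the genotype without the allele, so it is not stated here which cells of the donor lacked Egfl7, and genotype and donor sex cannot be told apart in HC1. Each library of a group has its own mouse number in its title, and values below follow the replicate numbers of the titles (1 to 3, or 2, 3, 5 and 6 for HC2 wild types and 1, 4, 7 and 8 for HC2 knockouts). Values are RPKM, reads mapped to a gene, scaled by its length and by the library total, so levels of different chains are compared per length. The libraries were enriched for exons by capture, and the gene lengths used are not given. In rankings and ratios of chains, RNA level therefore cannot be told apart from differences in capture.

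Each of the 7 hippocampal knockout libraries listed Egfl7 at 0 RPKM, against 0.566 to 1.34 RPKM in HC1 wild types and 0.996 to 1.59 RPKM in HC2 wild types. In the SVZ, 2 libraries went against their labels. The library labelled SVZ knockout 2 had 2.86 RPKM, and the library labelled SVZ wild type 3 was listed at 0. Egfl7 was at 0.094 and 0 RPKM in SVZ knockouts 1 and 3, and at 1.73 and 2.99 RPKM in SVZ wild types 1 and 2. Counts of collagen genes called in comparisons with the SVZ are therefore also given without these 2 libraries. Differences of marker genes and of genes that act on collagen are given with all SVZ libraries only. Depth, worked out from the smallest steps in the values, was estimated at 11971000 to 13880000 reads per SVZ library, 11668000 to 12933000 reads in HC1 and 17773000 to 31211000 reads in HC2.

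Collagen chains wind together into triple helices, and the partners decide which network it joins. Fibrillar collagens form the cross-banded fibres of connective tissue, with types V and XI as the minor chains that start fibrils and limit their width. Type IV collagen forms the sheet of basement membranes, in which the chains of Col4a1 and Col4a2 are ubiquitous and those of Col4a5 and Col4a6 are found in particular tissues. FACIT collagens sit on the surface of fibrils, and Col18a1 encodes a heparan sulfate-bearing basement membrane collagen whose end fragment is endostatin. In the adult subventricular zone, stem cells touch vascular basement membrane and branched basement membrane structures rich in these molecules.

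The type IV genes lie in head-to-head pairs. In the deposited positions on GRCm38, the starts of Col4a1 (minus strand) and Col4a2 (plus strand) on chromosome 8 are 3 bases apart, those of Col4a4 and Col4a3 on chromosome 1 are 72 bases apart, and those of Col4a6 and Col4a5 on the X chromosome are 1293 bases apart. Promoter windows of RefSeq on GRCm38.p6, from 250 bases before to 50 after a transcript start, were found for 35 of the 44 genes (38 windows) and for 17 of the 21 tested ones. The windows below are shown because the paired type IV genes share or border one stretch of DNA while their levels differed, and because Col18a1 was the chain that differed most between regions. They are chr8:11312777-11313076 (minus strand) for Col4a1, chr8:11312555-11312854 (plus strand) for Col4a2, chrX:141475169-141475468 (plus strand) for Col4a5, chrX:141474027-141474326 (minus strand) for Col4a6 and chr10:77166481-77166780 (minus strand) for the Col18a1 start that equals the deposited gene start. Each reads 5′ to 3′ on the gene's strand. Capitals mark 3 motifs on either strand. The CCAAT box reads CCAAT and in reverse ATTGG. The GC box reads GGGCGG and in reverse CCGCCC. The TATA box reads TATAAA and in reverse TTTATA, and none of these contains another.
Col4a1: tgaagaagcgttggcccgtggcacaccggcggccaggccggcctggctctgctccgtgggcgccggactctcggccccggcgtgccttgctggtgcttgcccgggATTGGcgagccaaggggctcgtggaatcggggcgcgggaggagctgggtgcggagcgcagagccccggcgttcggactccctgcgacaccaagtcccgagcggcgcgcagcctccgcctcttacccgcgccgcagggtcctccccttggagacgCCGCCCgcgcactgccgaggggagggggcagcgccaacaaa
Col4a2: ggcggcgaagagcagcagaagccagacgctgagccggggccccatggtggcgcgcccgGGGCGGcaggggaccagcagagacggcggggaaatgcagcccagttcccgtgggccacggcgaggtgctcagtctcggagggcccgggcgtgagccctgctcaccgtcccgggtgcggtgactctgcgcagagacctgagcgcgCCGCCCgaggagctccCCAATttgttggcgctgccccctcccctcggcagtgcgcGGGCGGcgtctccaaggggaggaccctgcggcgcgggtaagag
Col4a5: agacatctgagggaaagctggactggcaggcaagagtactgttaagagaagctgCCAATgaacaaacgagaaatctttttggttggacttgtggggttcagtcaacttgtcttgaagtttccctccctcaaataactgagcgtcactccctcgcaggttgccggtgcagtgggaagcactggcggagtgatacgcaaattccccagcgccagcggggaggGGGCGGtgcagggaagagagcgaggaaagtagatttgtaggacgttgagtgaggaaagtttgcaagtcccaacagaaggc
Col4a6: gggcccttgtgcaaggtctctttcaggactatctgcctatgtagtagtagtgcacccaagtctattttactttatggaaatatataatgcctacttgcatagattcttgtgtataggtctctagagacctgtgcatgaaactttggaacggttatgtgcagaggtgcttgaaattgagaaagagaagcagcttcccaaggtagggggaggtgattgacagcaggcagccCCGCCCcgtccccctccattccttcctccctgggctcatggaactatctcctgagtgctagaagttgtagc
Col18a1: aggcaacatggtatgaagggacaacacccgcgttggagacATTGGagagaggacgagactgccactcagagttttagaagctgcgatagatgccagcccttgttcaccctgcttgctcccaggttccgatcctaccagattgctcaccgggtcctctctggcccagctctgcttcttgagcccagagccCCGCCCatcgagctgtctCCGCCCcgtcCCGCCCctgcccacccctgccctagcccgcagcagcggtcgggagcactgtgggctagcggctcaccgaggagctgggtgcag
The Col4a1 and Col4a2 windows overlap by 78 bases, chr8:11312777-11312854. The Col4a1 window holds 1 CCAAT and 1 GGGCGG match, the Col4a2 window 1 and 3, and Col4a5 holds 1 of each. Col4a6 holds a GGGCGG match and no CCAAT in these letters, and the Col18a1 window holds 3 GGGCGG matches and 1 CCAAT. GC content was 74.0% for Col4a1, 73.7% for Col4a2, 52.7% for Col4a5 and 48.3% for Col4a6, against a median of 52.7% over all 32851 windows. Over the 38 windows of the collagen genes, GGGCGG was in 60.5% against 35.7% of all windows, CCAAT in 34.2% against 37.4% and TATAAA in 13.2% against 13.6%. The median GC content of these 38 windows was 59.8%, also above that of all windows, and its part in the GGGCGG share was not tested. A match is a description of the sequence and not evidence of binding.

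The collagen chains of neurospheres were those of minor fibrillar, basement membrane and FACIT collagens, and the major chains of connective tissue were nearly absent. All 23 genes that failed the filter stayed below 1 RPKM in each library. Col1a1 and Col1a2, the chains of type I collagen in bone and skin, reached at most 0.432 and 0.070 RPKM. Col3a1, the chain of type III collagen around vessels, reached 0.187 RPKM, and Col2a1, the chain of cartilage type II, reached 0.203 RPKM. The highest library of the other genes not tested was 0.071 RPKM for Col24a1, 0.484 for Col4a3 and 0.515 for Col4a4, 0.301 for Col6a2, 0.580 for Col6a3, 0.089 for Col6a4, 0.059 for Col6a5 and 0.013 for Col6a6. It was 0.656 RPKM for Col7a1, 0.037 for Col8a1, 0.379 for Col8a2, 0.270 for Col10a1, 0.144 for Col13a1, 0.189 for Col14a1, 0.060 for Col15a1, 0.045 for Col17a1, 0.949 for Col19a1, 0.359 for Col22a1 and 0.457 for Col25a1. In sum the 44 genes made up 93.4 to 239 RPKM of a library, or 0.0133% to 0.0346% of the RPKM of all genes. The 3 highest chains of a library carried 42.6% to 61.5% of that sum. Col11a1 was the highest chain in 16 of 20 libraries, Col5a2 in 3 HC2 libraries and Col18a1 in the library labelled SVZ knockout 2. The 21 tested genes are 47.7% of the 44, beside 44.7% of all rows of the table. Since a gene passes the filter when it is high in 1 group only, counts over the tested genes are a description.

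**Figure D1:**
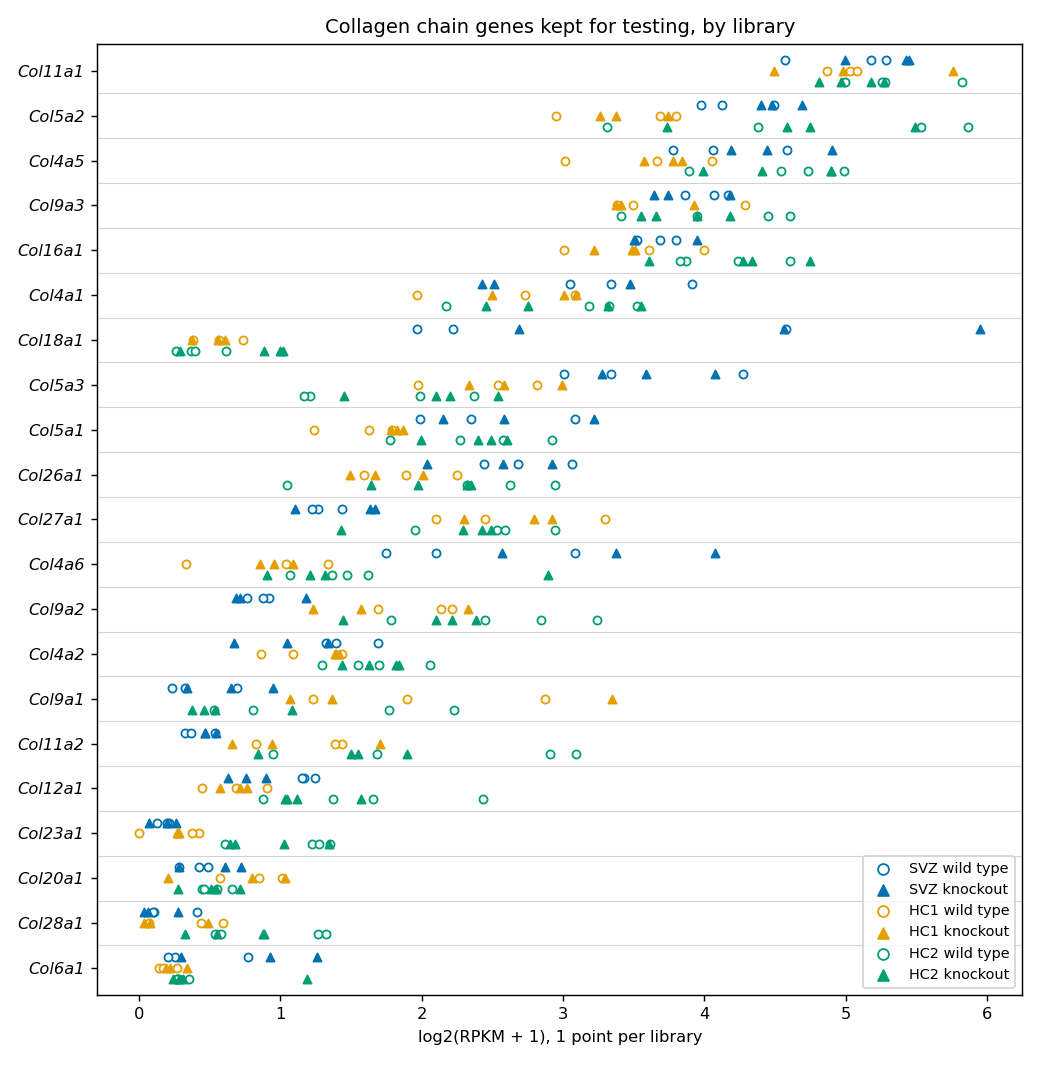
Level of the 21 tested collagen genes in each of the 20 libraries, as log2(RPKM + 1), with SVZ in blue, HC1 in orange and HC2 in green, open circles for wild types and filled triangles for Egfl7 knockouts. Col11a1 was high in all 20 libraries (21.5 to 55.6 RPKM), while Col18a1 was between 2.90 and 61.0 RPKM in the SVZ and at most 1.03 RPKM in both hippocampal rounds.

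Among the fibrillar chains, Col11a1, which encodes a type XI chain, stood at 35.3, 22.8 and 37.9 RPKM in SVZ wild types and 42.7, 42.0 and 30.8 in SVZ knockouts, 31.7, 28.2 and 32.8 in HC1 wild types and 30.6, 53.1 and 21.5 in HC1 knockouts, and 30.9, 55.6, 37.8 and 37.2 in HC2 wild types and 37.7, 30.2, 27.1 and 35.2 in HC2 knockouts. Its ranges overlapped between all 6 groups. The other type XI gene, Col11a2, was far lower, at 0.451, 0.252 and 0.288 RPKM in SVZ wild types and 0.459, 0.380 and 0.379 in SVZ knockouts, 1.70, 0.776 and 1.61 in HC1 wild types and 0.915, 2.26 and 0.579 in HC1 knockouts, and 0.926, 7.51, 6.49 and 2.21 in HC2 wild types and 1.92, 1.83, 0.787 and 2.72 in HC2 knockouts. SVZ libraries lay below every hippocampal library for Col11a2, and the ratio of Col11a1 to Col11a2 was 78.2 to 132 in the SVZ, 18.7 to 37.1 in HC1 and 5.83 to 34.4 in HC2. The 3 genes of type V collagen were all present. Col5a1, the chain of the common type V molecule, stood at 2.97, 4.08 and 7.48 RPKM in SVZ wild types and 4.99, 8.30 and 3.44 in SVZ knockouts, 1.36, 2.45 and 2.09 in HC1 wild types and 2.43, 2.66 and 2.54 in HC1 knockouts, and 6.58, 4.97, 2.43 and 3.82 in HC2 wild types and 5.07, 4.28, 4.61 and 2.99 in HC2 knockouts. Col5a2, its usual partner, stood at 16.4, 14.7 and 21.5 RPKM in SVZ wild types and 21.3, 24.8 and 20.1 in SVZ knockouts, 12.9, 11.9 and 6.73 in HC1 wild types and 9.38, 12.4 and 8.57 in HC1 knockouts, and 19.9, 57.4, 8.95 and 45.3 in HC2 wild types and 12.3, 43.9, 25.8 and 23.0 in HC2 knockouts. Col5a2 varied most within HC2, where wild types 3 and 6 and knockout 4 lay above 40 RPKM and wild type 5 was below 10. Col5a3, a rarer type V chain, stood at 7.02, 9.13 and 18.4 RPKM in SVZ wild types and 11.0, 15.9 and 8.71 in SVZ knockouts, 2.93, 4.81 and 6.05 in HC1 wild types and 5.00, 6.95 and 4.05 in HC1 knockouts, and 4.18, 1.31, 1.24 and 2.97 in HC2 wild types and 3.60, 3.29, 4.81 and 1.73 in HC2 knockouts. Every SVZ library was above every hippocampal library for Col5a3, by a margin of 7.02 against 6.95 RPKM at the closest. Col27a1, a fibrillar chain known from cartilage, stood at 1.70, 1.40 and 1.34 RPKM in SVZ wild types and 2.11, 2.18 and 1.15 in SVZ knockouts, 4.46, 3.28 and 8.84 in HC1 wild types and 3.93, 6.58 and 5.94 in HC1 knockouts, and 2.88, 4.79, 6.70 and 5.02 in HC2 wild types and 4.61, 4.36, 1.69 and 3.90 in HC2 knockouts. Here the SVZ libraries lay below all HC1 libraries and overlapped HC2 through HC2 knockout 7.

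Of the type IV genes, Col4a5 was the highest and stood at 15.7, 12.7 and 23.0 RPKM in SVZ wild types and 20.8, 29.0 and 17.2 in SVZ knockouts, 15.6, 11.7 and 7.08 in HC1 wild types and 12.7, 13.4 and 10.9 in HC1 knockouts, and 13.9, 30.8, 22.3 and 25.6 in HC2 wild types and 14.9, 28.8, 20.2 and 28.8 in HC2 knockouts. Its neighbour Col4a6 stood at 3.29, 2.35 and 7.48 RPKM in SVZ wild types and 9.39, 15.9 and 4.93 in SVZ knockouts, 1.53, 1.05 and 0.261 in HC1 wild types and 0.937, 1.13 and 0.812 in HC1 knockouts, and 1.10, 1.77, 2.08 and 1.58 in HC2 wild types and 1.49, 0.868, 1.31 and 6.42 in HC2 knockouts. Col4a6 was higher in each SVZ library than in any HC1 library, and HC2 knockout 8 was the only hippocampal library within the SVZ range. The Col4a5 to Col4a6 ratio was 1.82 to 5.42 in the SVZ, 10.2 to 27.1 in HC1 and 4.49 to 33.2 in HC2. Col4a1, of the ubiquitous network, stood at 9.10, 7.29 and 14.1 RPKM in SVZ wild types and 4.71, 4.39 and 10.1 in SVZ knockouts, 7.48, 5.64 and 2.90 in HC1 wild types and 7.04, 4.66 and 7.52 in HC1 knockouts, and 10.5, 8.09, 3.50 and 9.02 in HC2 wild types and 5.73, 4.47, 10.7 and 8.99 in HC2 knockouts. Col4a2, its partner from the shared promoter region, stood at 1.63, 1.50 and 2.22 RPKM in SVZ wild types and 1.07, 0.593 and 1.52 in SVZ knockouts, 1.71, 1.13 and 0.815 in HC1 wild types and 1.62, 1.62 and 1.66 in HC1 knockouts, and 3.17, 2.24, 1.45 and 1.92 in HC2 wild types and 2.09, 1.71, 2.53 and 2.58 in HC2 knockouts. The Col4a1 to Col4a2 ratio lay between 2.42 and 7.39 over the 20 libraries, a narrower span than that of the other pair.

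The FACIT genes were led by Col9a3 and Col16a1. Type IX collagen is made of 1 chain from each of Col9a1, Col9a2 and Col9a3, and its 3 genes differed in level. Col9a3 stood at 16.9, 13.6 and 15.8 RPKM in SVZ wild types and 17.2, 11.5 and 12.4 in SVZ knockouts, 18.5, 10.2 and 9.40 in HC1 wild types and 9.38, 14.2 and 9.62 in HC1 knockouts, and 14.5, 20.9, 23.4 and 9.64 in HC2 wild types and 11.6, 17.1, 10.7 and 14.4 in HC2 knockouts. Col9a2 stood at 0.889, 0.835 and 0.697 RPKM in SVZ wild types and 1.27, 0.640 and 0.609 in SVZ knockouts, 3.41, 2.22 and 3.63 in HC1 wild types and 1.96, 4.02 and 1.35 in HC1 knockouts, and 2.44, 8.44, 6.18 and 4.46 in HC2 wild types and 4.23, 3.28, 1.72 and 3.64 in HC2 knockouts. Col9a1 stood at 0.617, 0.176 and 0.252 RPKM in SVZ wild types and 0.924, 0.264 and 0.571 in SVZ knockouts, 6.31, 1.35 and 2.72 in HC1 wild types and 1.57, 9.19 and 1.09 in HC1 knockouts, and 0.443, 2.41, 3.69 and 0.751 in HC2 wild types and 1.11, 0.454, 0.294 and 0.371 in HC2 knockouts. Col9a3 overlapped between the regions, whereas each SVZ library was below every hippocampal one for Col9a2 and below every HC1 library for Col9a1. The Col9a3 to Col9a2 ratio was accordingly 13.6 to 22.7 in the SVZ, 2.59 to 7.15 in HC1 and 2.16 to 6.25 in HC2. Col16a1, a FACIT chain found near basement membranes, stood at 12.9, 10.5 and 11.9 RPKM in SVZ wild types and 14.4, 10.3 and 10.4 in SVZ knockouts, 15.0, 11.2 and 7.02 in HC1 wild types and 8.30, 10.2 and 10.4 in HC1 knockouts, and 13.6, 17.9, 23.3 and 13.2 in HC2 wild types and 18.3, 19.2, 11.2 and 25.9 in HC2 knockouts. Col12a1, a large FACIT chain of dense connective tissue, stood at 1.37, 1.24 and 1.22 RPKM in SVZ wild types and 0.685, 0.549 and 0.860 in SVZ knockouts, 0.604, 0.872 and 0.363 in HC1 wild types and 0.487, 0.694 and 0.641 in HC1 knockouts, and 1.58, 2.15, 4.41 and 0.838 in HC2 wild types and 1.04, 1.06, 1.17 and 1.97 in HC2 knockouts. HC2 wild type 5 was the highest library for Col12a1.

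Outside these classes, Col18a1 stood at 2.90, 3.66 and 22.9 RPKM in SVZ wild types and 22.6, 61.0 and 5.43 in SVZ knockouts, 0.303, 0.481 and 0.660 in HC1 wild types and 0.469, 0.295 and 0.520 in HC1 knockouts, and 0.533, 0.287, 0.316 and 0.196 in HC2 wild types and 1.03, 0.223, 0.841 and 0.995 in HC2 knockouts. Each SVZ library was above every hippocampal library, and the SVZ libraries themselves spanned 2.90 to 61.0 RPKM. Col26a1, which encodes a short collagen with an EMI domain, stood at 5.40, 4.43 and 7.35 RPKM in SVZ wild types and 4.95, 6.58 and 3.10 in SVZ knockouts, 2.01, 3.74 and 2.70 in HC1 wild types and 1.81, 2.19 and 3.03 in HC1 knockouts, and 3.99, 5.17, 1.07 and 6.67 in HC2 wild types and 2.92, 3.99, 4.09 and 2.12 in HC2 knockouts. Col23a1, a transmembrane collagen, stood at 0.157, 0.147 and 0.090 RPKM in SVZ wild types and 0.144, 0.049 and 0.197 in SVZ knockouts, 0.342, 0.297 and 0 in HC1 wild types and 0.207, 0.214 and 0.205 in HC1 knockouts, and 0.525, 1.34, 1.41 and 1.55 in HC2 wild types and 0.601, 1.03, 0.563 and 1.54 in HC2 knockouts. No HC2 library of Col23a1 overlapped the SVZ or HC1 libraries, whose values rest on about 1 to 7 reads where above 0. Col28a1, a relative of the type VI chains, stood at 0.077, 0.072 and 0.329 RPKM in SVZ wild types and 0.046, 0.210 and 0.024 in SVZ knockouts, 0.048, 0.506 and 0.352 in HC1 wild types and 0.401, 0.052 and 0.024 in HC1 knockouts, and 0.491, 1.41, 0.447 and 1.50 in HC2 wild types and 0.253, 0.848, 0.836 and 0.465 in HC2 knockouts. Its SVZ and HC1 values rest on an estimated 1 to 21.9 reads. The 2 remaining tested genes were Col6a1, a chain of the beaded filaments of type VI, at 0.102 to 1.39 RPKM, and the FACIT gene Col20a1, at 0.154 to 1.05 RPKM.

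The labelled cell type was checked on markers. All 10 neural stem and astroglia markers passed the filter and summed to 7284 to 15033 RPKM, and the 8 oligodendrocyte precursor markers summed to 580 to 1564 RPKM. Of cell types known for making collagen, 3 of 12 endothelial markers passed, with sums of 3.95 to 8.55 RPKM in the SVZ, 1.80 to 3.04 RPKM in HC1 and 1.13 to 3.05 RPKM in HC2. Those that passed were Kdr, Abcb1a and Flt1, a VEGF receptor that reached 6.70 RPKM, whereas Cdh5, Cldn5 and Tie1 stayed at or under 0.062 RPKM. Of fibroblast and meningeal markers 3 of 13 passed, namely Ogn, Foxc1 and Pdgfrl, while Dcn and Lum stayed at or under 0.074 RPKM. The whole list summed to 1.50 to 3.57 RPKM in the SVZ, 3.82 to 12.3 RPKM in HC1 and 4.01 to 9.39 RPKM in HC2. Pericyte and smooth muscle markers summed to 20.7 to 97.1 RPKM, mostly from Notch3, Acta2 and Tagln. These 3, Pdgfrb and Myh11 were the 5 of 12 that passed, while Kcnj8, Abcc9 and Anpep stayed at or under 0.086 RPKM. In bulk RNA, fewer cells of a type and less RNA per cell cannot be told apart.

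The knockout comparison asks which genes respond to loss of Egfl7, a secreted protein of blood vessels and neural stem cells. No collagen gene passed the test between knockout and wild type. Differences were tested with limma on log2(RPKM + 1), with Benjamini-Hochberg adjustment over all 16403 genes kept and a threshold of 0.05. In the SVZ 0 of 21 collagen genes were called, where 0.0122% of all genes were called. In HC1 0 of 21 were called against a background of 0.0122%, in HC2 0 of 21 against 0.0244%, and in the mean of both hippocampal contrasts 0 of 21 against 0.0305% (0.0061% higher). At an unadjusted p under 0.05 the counts were 3 of 21 in the SVZ and 0 in the other 3 contrasts, beside 379, 646, 644 and 970 of all genes. The median log2 difference of the 21 genes was 0.11 in the SVZ, 0.00 in HC1 and -0.14 in HC2, beside -0.00, -0.01 and 0.00 over all genes tested.

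The smallest p in the SVZ belonged to 3 basement membrane genes, given here as values. Col18a1 had a log2 difference of 1.48 ± 0.64 (SE) between knockout and wild type, with a limma p of 0.0344 and an adjusted p of 1. Col4a6 differed by 1.03 ± 0.46 and Col4a2 by -0.45 ± 0.21, with limma p of 0.0405 and 0.0450 and an adjusted p of 1 each. For Col18a1 the groups overlapped, with 22.9 RPKM in the library labelled SVZ wild type 3 and 5.43 RPKM in SVZ knockout 3. Its SE and p rest on a spread shared by all 6 groups. Col18a1 varied from 2.90 to 61.0 RPKM in the SVZ and stayed at or under 1.03 RPKM in hippocampal libraries. The SE and p therefore do not measure the spread of the SVZ libraries alone. Without the 2 libraries that went against their labels, the log2 differences were 1.53 for Col18a1, 1.05 for Col4a6 and -0.17 for Col4a2, each with an adjusted p of 1 (limma). In HC1 the smallest p were those of Col4a2 (0.27 ± 0.21), Col9a2 (-0.30 ± 0.34) and Col5a1 (0.27 ± 0.31), with an adjusted p of 0.976 each (limma). In HC2 they were those of Col11a2 (-0.71 ± 0.38), Col9a2 (-0.54 ± 0.29) and Col12a1 (-0.39 ± 0.23), with an adjusted p of 0.988 each (limma). Over both hippocampal rounds they were those of Col9a2 (-0.42 ± 0.22, adjusted p = 0.750, limma), Col28a1 (-0.22 ± 0.15) and Col11a2 (-0.41 ± 0.29), the last pair with an adjusted p of 0.753 (limma).

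The interval of a difference follows the group sizes and a spread per gene that is shared by all 6 groups. It does not measure the spread of the groups compared alone. The 95% interval lay within a log2 change of 1 in either direction for 14 of 21 genes in each of the SVZ, HC1 and HC2, and for 18 of 21 in the mean of HC1 and HC2. These differences are of log2(RPKM + 1), which holds low genes near 0, such as Col20a1 at 0.154 to 1.05 RPKM. For low genes an interval within these limits does not bound the fold change of RPKM. The median width of the 95% interval was 1.34 in the SVZ and HC1 and 1.16 in HC2. The widest, that of Col18a1, was 2.71 in the SVZ and HC1 and 2.35 in HC2. The knockout effect was also compared between sphere types. For the effect in the SVZ minus that in HC2, 0 of 21 genes were called (background 0.0305%, of which 0.0061% lower), and the smallest p were those of Col4a2 (log2 difference of effects -0.48 ± 0.28), Col11a1 (0.56 ± 0.36) and Col11a2 (0.79 ± 0.57), each with an adjusted p of 1.000 (limma). For the effect in HC1 minus that in HC2, 0 of 21 were called (background 0.0244%), with Col12a1 (0.40 ± 0.35), Col11a2 (0.59 ± 0.57) and Col11a1 (0.37 ± 0.36) at the smallest p and an adjusted p of 1.000 (limma). At an unadjusted p under 0.05 both counts were 0 of 21, beside 324 and 421 of all genes. None of the 5 lists of genes for making, processing, sensing, degrading or partnering collagen had a called gene in a knockout contrast.

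**Figure D2:**
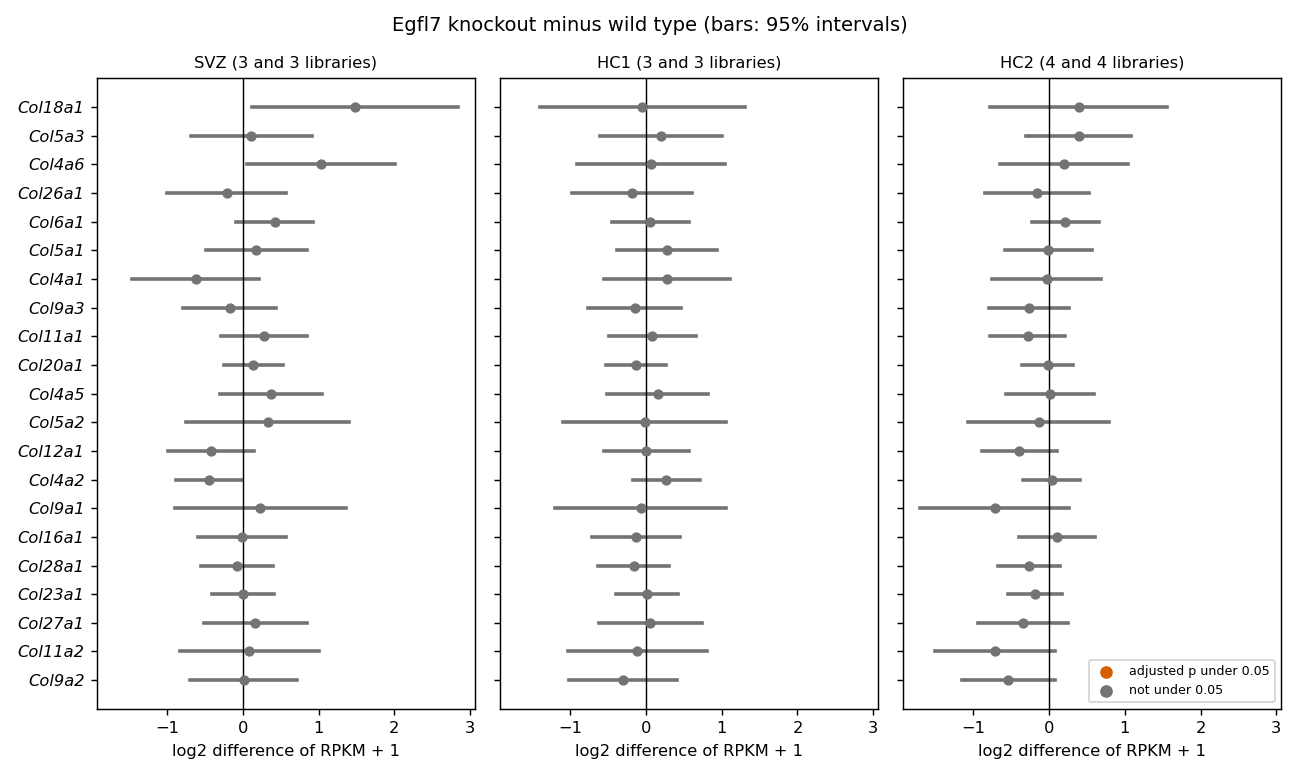
Log2 difference of RPKM + 1 between Egfl7 knockout and wild type for the 21 tested collagen genes in the SVZ, HC1 and HC2, with points for the limma estimate and bars for its 95% interval. All points are grey because 0 of 21 genes passed an adjusted p of 0.05 in any of the 3 comparisons. The widest bar of each panel belongs to Col18a1, as each gene's spread is shared by all groups.

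SVZ spheres had more Col18a1, Col4a6 and Col5a3, a multiplexin, a type IV chain and a type V chain, and less Col9a2 and Col27a1, a FACIT and a fibrillar chain, than either hippocampal round. In SVZ minus HC1, 9 of 21 genes were called, 6 higher and 3 lower, which is 42.9%, where 34.1% of all genes were called (14.5% higher and 19.6% lower). In SVZ minus HC2, 11 of 21 were called, 3 higher and 8 lower, which is 52.4%, where 67.2% of all genes were called (34.7% higher and 32.6% lower). These shares are near or below those of all genes, so the counts are no result about collagen genes as a set and only the single genes are described. The median log2 difference of the 21 genes was 0.29 in SVZ minus HC1 and -0.22 in SVZ minus HC2, beside -0.03 and 0.00 over all genes. Culture day differs with region in both comparisons, sphere round differs with it in the second, and the HC1 wild types are female, so that region cannot be told apart from day. Markers of other cell types moved with region as well. Flt1 was higher in the SVZ by 1.76 ± 0.22 against HC1 (adjusted p = 8.1e-05, limma) and by 1.75 ± 0.20 against HC2 (adjusted p = 9.9e-07, limma), and of the 3 tested endothelial markers 1 was called higher against HC1 and 3 against HC2. Of the 5 tested pericyte and smooth muscle markers, 0 were called against HC1, and 3 were higher and 1 lower against HC2, led by Acta2 (2.89 ± 0.35, adjusted p = 1.7e-06, limma) and Tagln (1.92 ± 0.43, adjusted p = 0.000865, limma), both contractile proteins. Of the 3 tested fibroblast and meningeal markers 2 were lower in either comparison. Markers of neural cell types moved in both directions too. Against HC1 the oligodendrocyte precursor marker Gpr17 was lower (-3.13 ± 0.62) and the neuroblast marker Dlx2 higher (0.94 ± 0.13). Against HC2 the stem cell and astroglia markers Hes5 (-2.72 ± 0.38) and Nes (1.79 ± 0.28) were lower and higher. The part of all these markers in the collagen differences was not tested.

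Col18a1 had the largest difference of the set, 3.12 ± 0.45 in SVZ minus HC1 (adjusted p = 0.000221, limma) and 3.06 ± 0.42 in SVZ minus HC2 (adjusted p = 8.68e-06, limma). Its mean was 19.7 ± 22.2 RPKM in the SVZ (SD, n = 6), 0.455 ± 0.138 in HC1 (SD, n = 6) and 0.552 ± 0.352 in HC2 (SD, n = 8). The SE of both differences rests on the spread shared by the groups, which was uneven for this gene. Col4a6 was higher in the SVZ by 1.89 ± 0.33 against HC1 (adjusted p = 0.000729, limma) and by 1.35 ± 0.31 against HC2 (adjusted p = 0.000992, limma). Col5a3 was higher by 1.05 ± 0.27 against HC1 (adjusted p = 0.00753, limma) and by 1.72 ± 0.25 against HC2 (adjusted p = 1.39e-05, limma). Against HC1 alone, Col5a1 (0.87 ± 0.22, adjusted p = 0.00741), Col26a1 (0.80 ± 0.27, adjusted p = 0.0281) and Col4a5 (0.67 ± 0.22, adjusted p = 0.0293) were also higher by the limma test. The neighbours Col4a5 and Col4a6 thus both passed against HC1, while only Col4a6 of the pair passed against HC2, where Col4a5 had -0.22 ± 0.21 (adjusted p = 0.369, limma).

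On the lower side, type IX genes led. Col9a2 was lower in the SVZ by a log2 difference of -1.004 ± 0.24 against HC1 (adjusted p = 0.00504, limma) and -1.45 ± 0.22 against HC2 (adjusted p = 2.25e-05, limma). Col9a1 had -1.43 ± 0.38 against HC1 (adjusted p = 0.00932, limma) and did not pass against HC2 (-0.44 ± 0.35, adjusted p = 0.279). Col9a3, the remaining type IX gene, passed in neither comparison, with 0.30 ± 0.21 against HC1 and -0.03 ± 0.19 against HC2. Col27a1 was lower by -1.26 ± 0.23 (adjusted p = 0.000986, limma) and -0.94 ± 0.21 (adjusted p = 0.000939, limma). Col11a2 was lower against HC2 (-1.35 ± 0.29, adjusted p = 0.00054, limma) and had -0.71 ± 0.31 against HC1 (adjusted p = 0.083). Col11a1, its partner, had 0.12 ± 0.19 and -0.05 ± 0.18 and passed in neither. Col5a2 did not overlap between SVZ and HC1 libraries, yet its difference of 0.89 ± 0.36 did not pass (adjusted p = 0.0653, limma). Against HC2, the limma test also called Col23a1 (-0.84 ± 0.13, adjusted p = 2.14e-05), Col28a1 (-0.63 ± 0.15, adjusted p = 0.00135), Col16a1 (-0.53 ± 0.18, adjusted p = 0.0167), Col4a2 (-0.42 ± 0.14, adjusted p = 0.0124) and Col12a1 (-0.41 ± 0.18, adjusted p = 0.0476). Col23a1 reached the 0.5 RPKM of the filter in HC2 libraries only. Col28a1 did so in HC2 and, at 0.506 RPKM, in HC1 wild type 2, and Col11a2 in hippocampal libraries only. Their places among the tested genes rest on the libraries where they are high, so their calls against HC2 are a description.

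Several of these calls rest on few libraries. Without SVZ knockout 2 and SVZ wild type 3, 4 genes were called in SVZ minus HC1 (Col18a1 at 2.32, Col4a6 at 1.51, Col27a1 and Col9a2) and 9 in SVZ minus HC2. Between knockout groups alone, all from males, 3 genes were called in SVZ minus HC1 (Col18a1, Col4a6 and Col27a1) and 7 in SVZ minus HC2. Leaving out 1 library ended the call of Col26a1 against HC1 (SVZ wild type 3, SVZ knockouts 1 and 2, HC1 wild type 1, HC1 knockouts 1 and 2; limma adjusted p 0.0520 to 0.0733) and that of Col4a5 (SVZ wild type 3, SVZ knockout 2, HC1 wild type 3, HC1 knockout 3; 0.0598 to 0.0833). The call of Col12a1 against HC2 was lost without any of 11 of the 14 libraries: all 6 of the SVZ, HC2 wild types 3 and 5 and HC2 knockouts 4, 7 and 8 (limma adjusted p 0.0501 to 0.0960). After quantile normalization 10 genes were called in SVZ minus HC2, 4 higher and 6 lower. Cell cycle genes were also higher in the SVZ, with a mean log2(RPKM + 1) over 35 genes of 6.59 to 6.74 in SVZ libraries, 4.67 to 6.01 in HC1 and 1.62 to 5.88 in HC2. With that mean as a covariate, 9 collagen genes were called in SVZ minus HC1 and 5 in SVZ minus HC2 (Col18a1, Col4a6 and Col5a3 higher, Col9a2 and Col4a2 lower).

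The hippocampal rounds share region and culture day. Each HC2 library was deeper than every HC1 library, and the HC1 wild types are female while all HC2 donors are male. Round therefore cannot be told apart from depth or, in the wild types, from donor sex. HC1 spheres had less of Col5a2, Col4a5 and 6 further chains than HC2 spheres and more Col9a1 and Col5a3. In HC1 minus HC2, 10 of 21 genes were called, 2 higher and 8 lower, which is 47.6%, below the 54.3% of all genes called (31.5% higher and 22.8% lower), and the median of the 21 genes was -0.40 beside 0.06 over all genes. The log2 difference was -1.24 ± 0.34 for Col5a2 (adjusted p = 0.00524, limma), -0.89 ± 0.21 for Col4a5 (adjusted p = 0.00178, limma) and -0.75 ± 0.13 for Col23a1 (adjusted p = 0.000103, limma). Col23a1, and Col28a1 but for HC1 wild type 2, reached the filter in HC2 libraries only, so their calls are a description. Col16a1 had -0.72 ± 0.18, Col12a1 -0.71 ± 0.18, Col5a1 -0.69 ± 0.21, Col28a1 -0.51 ± 0.15 and Col4a2 -0.40 ± 0.14, with limma adjusted p of 0.00283 to 0.0207. Col9a1 was higher in HC1 by 0.99 ± 0.35 (adjusted p = 0.0258, limma) and Col5a3 by 0.66 ± 0.25 (adjusted p = 0.0343, limma). The Col9a1 call was lost without HC1 wild type 1, HC1 knockout 2 or HC2 wild type 6 (limma adjusted p 0.0505 to 0.0833), that of Col4a2 without HC1 wild type 3 (0.0649), and that of Col5a3 without any of HC1 wild types 2 and 3, HC1 knockouts 1 and 2, HC2 wild types 3 and 5 and HC2 knockout 8 (0.0529 to 0.0908). Between the knockout groups alone, 4 genes were called (Col16a1, Col23a1 and Col4a5 lower, Col9a1 higher), and with the cell cycle mean as a covariate 7.

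**Figure D3:**
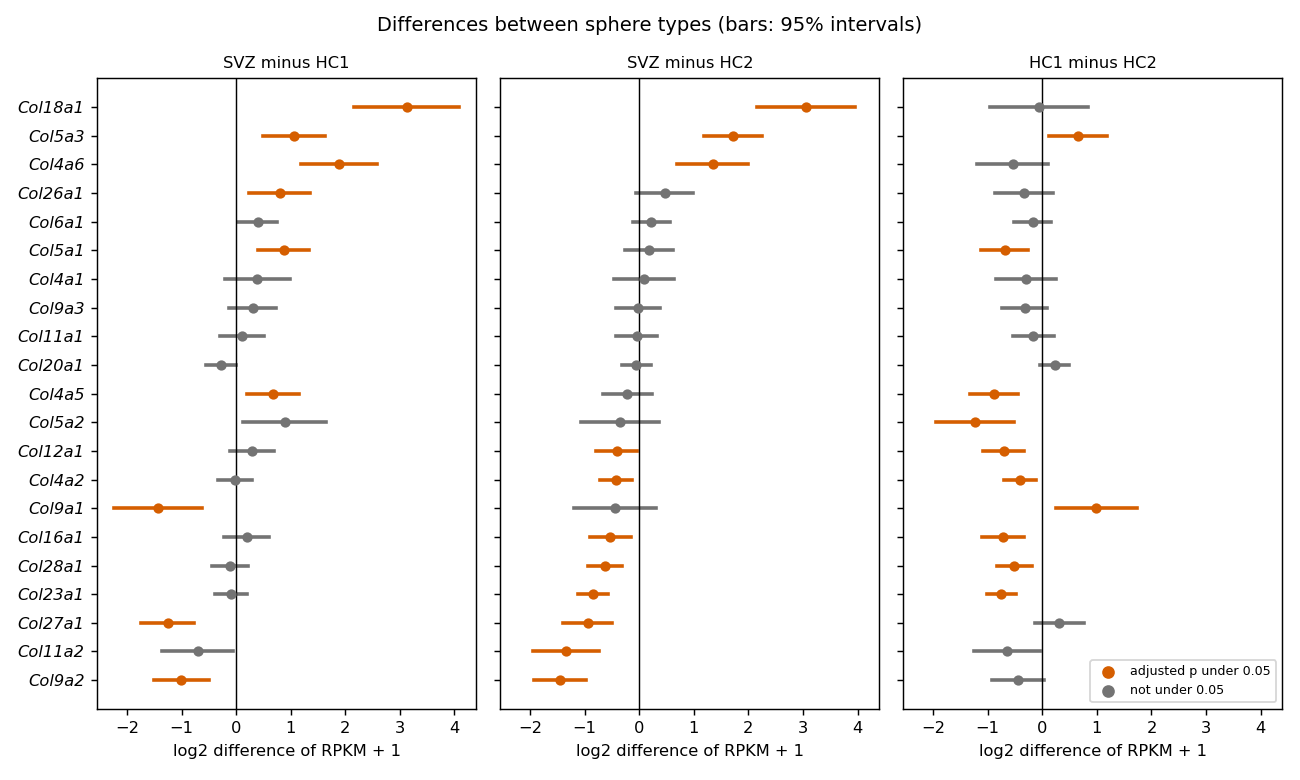
Log2 difference of RPKM + 1 for the 21 tested collagen genes in SVZ minus HC1, SVZ minus HC2 and HC1 minus HC2, with points for the limma estimate, bars for its 95% interval and orange for an adjusted p under 0.05. Col18a1, Col5a3 and Col4a6 lie to the right of 0 in both SVZ comparisons, Col27a1 and Col9a2 to the left, and 8 of the 10 genes called between the hippocampal rounds lie to the left.

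Within the SVZ, 8 of the 21 tested collagen genes had the same 3 libraries on top, across both genotypes: SVZ wild type 3 and SVZ knockouts 1 and 2. Col18a1 was between 22.6 and 61.0 RPKM in them, and between 2.90 and 5.43 RPKM in the other 3 libraries. In that order of libraries Col4a6 was at 7.48, 9.39 and 15.9 RPKM, against 2.35 to 4.93 RPKM in the others. Col6a1 was at 0.702, 0.900 and 1.39 RPKM, against 0.153 to 0.230. It reached the 0.5 RPKM of the filter only in these 3 libraries and in HC2 knockout 8. Its place among the tested genes therefore rests on the libraries where it is high. Col4a5 was at 23.0, 20.8 and 29.0 RPKM, against 12.7 to 17.2, and Col5a1 at 7.48, 4.99 and 8.30 RPKM, against 2.97 to 4.08. Col5a3 was at 18.4, 11.0 and 15.9 RPKM, against 7.02 to 9.13. Closer to the others were Col5a2, at 21.5, 21.3 and 24.8 RPKM against 14.7 to 20.1, and Col11a1, at 37.9, 42.7 and 42.0 RPKM against 22.8 to 35.3. Of the genes not tested, Col25a1 divided the libraries in the same way, and Col1a1, Col14a1 and the tested Col23a1, all below 1 RPKM, in the opposite way. Egfl7 was at 0, 0.094 and 2.86 RPKM in these 3 libraries, so neither the genotype label nor the Egfl7 level divides the libraries in this way. These genes were picked after their values were seen and the pattern is given without a test. The share of all genes that divide these libraries in the same way was not counted, so the count is no result about collagen genes as a set. Endothelial marker sums were 7.36, 8.55 and 4.60 RPKM in SVZ wild type 3 and SVZ knockouts 1 and 2, the first 2 being the highest of the 6, and 6.88, 3.95 and 5.16 RPKM in SVZ wild types 1 and 2 and SVZ knockout 3. In the same order, fibroblast and meningeal sums were 3.27, 3.45 and 1.50 RPKM against 3.57, 2.37 and 2.47, and pericyte and smooth muscle sums 44.6, 32.8 and 29.0 RPKM against 97.1, 35.9 and 58.4. The part of these markers in the collagen values was not tested. Cell cycle means of the 6 libraries lay within 6.59 to 6.74.

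**Figure D4:**
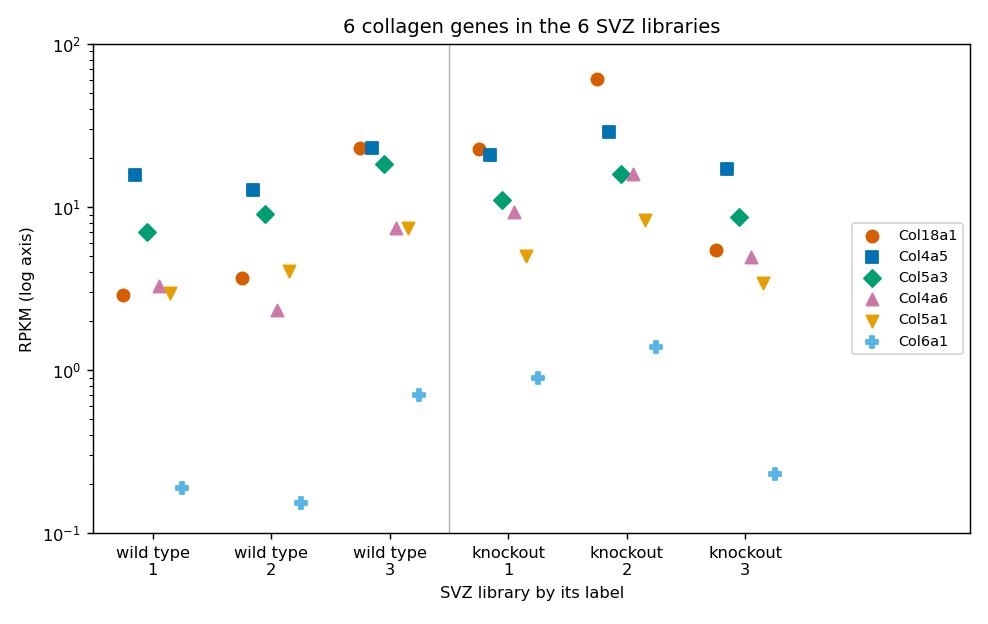
RPKM, on a log axis, of 6 of these collagen genes in each of the 6 SVZ libraries, named by their labels, with 1 symbol per gene. Wild type 3 and knockouts 1 and 2 carry the higher values of each gene, with Col18a1 at 22.6 to 61.0 RPKM in these and 2.90 to 5.43 RPKM in the rest.

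In HC1, 4 of the 21 tested genes, Col9a1, Col9a2, Col11a2 and Col11a1, had the same 3 libraries on top, again across both genotypes, and Col6a1 had them lowest. Col9a1 was at 6.31, 2.72 and 9.19 RPKM in HC1 wild types 1 and 3 and HC1 knockout 2, and at 1.09 to 1.57 RPKM in the other 3. Col9a2 in that order was at 3.41, 3.63 and 4.02 RPKM, against 1.35 to 2.22, and Col11a2 at 1.70, 1.61 and 2.26 RPKM, against 0.579 to 0.915. Col11a1 was at 31.7, 32.8 and 53.1 RPKM, against 21.5 to 30.6. Markers of oligodendrocyte precursors, all 8 of which passed the filter with none at 0, summed to 982, 1066 and 1011 RPKM in those libraries and to 597 to 749 RPKM in the others. The 10 neuroblast and neuron markers summed to 368, 412 and 344 RPKM against 320 to 330, and the cell cycle mean was 4.67, 5.60 and 5.53 against 5.73 to 6.01. Over the groups, the oligodendrocyte precursor sum was 580 to 726 RPKM in the SVZ, 597 to 1066 in HC1 and 737 to 1564 in HC2. The part of these markers and of the cell cycle genes in the collagen values was not tested, and the genes were again picked after their values were seen. How many of all genes divide the HC1 libraries in this way was not counted, so the pattern cannot be called particular to collagen genes.

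The 8 HC2 libraries differed widely in cell cycle genes within both genotypes, with means of 5.88, 2.66, 1.62 and 3.59 in wild types and 5.56, 3.93, 5.65 and 3.43 in knockouts. The slope of each gene on that mean was fitted with limma over the 8 libraries with genotype as a term. Of the 21 collagen genes 5 were called, which is 23.8%, where 23.4% of all genes were called (15.5% with a positive and 7.91% with a negative slope). Col5a3 and Col5a1, 2 of the 3 type V chains, were higher where cell cycle genes were higher. Their slopes were 0.32 ± 0.07 (adjusted p = 0.0134, limma) and 0.22 ± 0.06 (adjusted p = 0.0391, limma) per unit of the mean. Col11a2 (-0.45 ± 0.10, adjusted p = 0.0148), Col4a5 (-0.24 ± 0.07, adjusted p = 0.0454) and Col23a1 (-0.19 ± 0.05, adjusted p = 0.0344) were lower there by the same limma test. Col5a2, the other type V chain, was not called. It stood at 57.4 RPKM in wild type 3 and 8.95 RPKM in wild type 5, both with low cell cycle means. For Col11a2, the 2 libraries with the lowest cell cycle means, wild types 5 and 3, had 6.49 and 7.51 RPKM, and the 2 with the highest, wild type 2 and knockout 7, had 0.926 and 0.787 RPKM. Of the 5 calls, 0 were left without HC2 wild type 2 (limma adjusted p 0.111 for Col5a3 and 0.203 for Col11a2). The count was 3 without HC2 wild type 3 or knockout 4 and 2 without HC2 knockout 7 or 8. Without HC2 knockout 1 it was 5, but 3 of the original calls (Col23a1, Col4a5 and Col5a1) were lost. The calls of Col23a1 and Col4a5 were each lost without any of 6 of the 8 libraries (HC2 wild types 2 and 3 and all 4 HC2 knockouts; limma adjusted p 0.0591 to 0.299 and 0.0708 to 0.361). That of Col5a1 was lost without any of 5 (HC2 wild types 2 and 5 and HC2 knockouts 1, 7 and 8; 0.0633 to 0.270). After quantile normalization 1 gene had a positive and 4 a negative slope. The median slope of the 21 genes was -0.09, beside 0.01 over all genes.

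**Figure D5:**
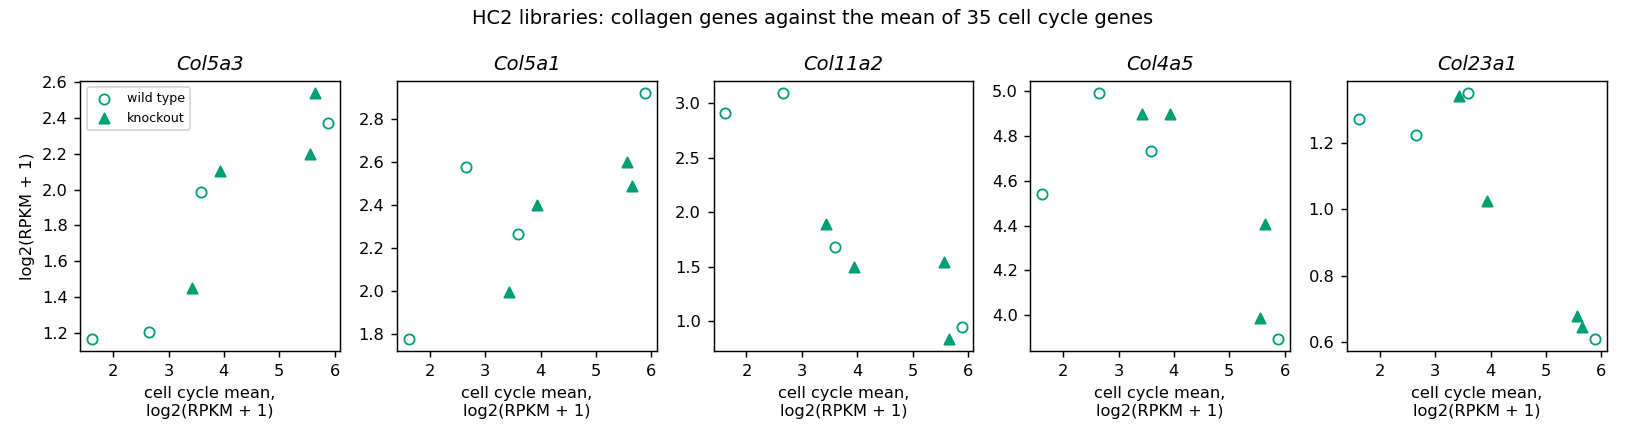
Level of 5 collagen genes, as log2(RPKM + 1), against the mean log2(RPKM + 1) of 35 cell cycle genes in the 8 HC2 libraries, with open circles for wild types and filled triangles for knockouts. Col5a3 and Col5a1 rise to the right, with Col5a3 from 1.24 to 4.81 RPKM, and Col11a2, Col4a5 and Col23a1 fall to the right.

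The same comparisons were read over lists of genes that make, process, sense and degrade collagen. The median gene mean over all libraries was 13.8 RPKM for biosynthesis, 0.250 for processing, 1.51 for receptors, 2.87 for breakdown and 2.56 for matrix partners, beside 1.72 for fibrillar and 2.51 for type IV chains. Of 21 genes for modifying and folding chains in the endoplasmic reticulum 19 were tested, and the highest was Ppib, a prolyl isomerase, at 335 to 496 RPKM. In SVZ minus HC1, 6 were higher and 2 lower (42.1% of the tested, against 34.1% of all genes), led by P3h2, a prolyl hydroxylase (1.38 ± 0.26), Crtap, a partner of prolyl hydroxylase (1.18 ± 0.25), and Serpinh1, the collagen chaperone (0.94 ± 0.29). In SVZ minus HC2, 8 were higher and 3 lower (57.9% of the tested, against 67.2% of all genes), led by P3h2 (1.63 ± 0.24), the lysyl hydroxylase Plod1 (-1.12 ± 0.12) and the chaperone Fkbp10 (1.01 ± 0.23). In HC1 minus HC2, 3 were higher and 4 lower (36.8% of the tested, against 54.3% of all genes), led by Plod1 (-0.84 ± 0.12), Tmem38b (0.60 ± 0.13) and P4ha3 (0.49 ± 0.12). On the cell cycle mean (26.3% called, against 23.4% of all genes), 3 had positive and 2 negative slopes, led by Crtap (0.39 ± 0.06), Fkbp10 (0.29 ± 0.09) and Colgalt1, which adds sugar to hydroxylysine (0.22 ± 0.04).

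Of 13 genes for trimming and cross-linking 8 were tested, and the highest was Bmp1, which removes the C-propeptide, at 45.7 to 76.7 RPKM. In SVZ minus HC1, 4 were higher and 1 lower (62.5% of the tested, against 34.1% of all genes), led by Adamts14, an N-propeptidase (1.89 ± 0.36), Pcolce, an enhancer of Bmp1 (1.28 ± 0.24), and the lysyl oxidase Loxl3 (-1.15 ± 0.16). In SVZ minus HC2, 4 were higher and 3 lower (87.5% of the tested, against 67.2% of all genes), led by the same 3 genes at 1.80 ± 0.34 for Adamts14, 1.26 ± 0.23 for Pcolce and -1.44 ± 0.15 for Loxl3. In HC1 minus HC2, 2 were higher and 2 lower (50% of the tested, against 54.3% of all genes), led by Adamts3 (1.62 ± 0.36), Bmp1 (-0.47 ± 0.08) and Adamts2 (-0.40 ± 0.12). On the cell cycle mean (37.5% called, against 23.4% of all genes), 2 had positive and 1 a negative slope, the N-propeptidases Adamts14 (0.51 ± 0.11), Adamts3 (0.46 ± 0.14) and Adamts2 (-0.19 ± 0.05).

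Of 11 collagen receptors 9 were tested. The integrin subunit Itgb1 was at 192 to 452 RPKM. In SVZ minus HC1, 1 was higher and 0 lower (11.1% of the tested, against 34.1% of all genes), Mrc2, the endocytic collagen receptor (1.23 ± 0.19). In SVZ minus HC2, 3 were higher and 3 lower (66.7% of the tested, against 67.2% of all genes), led by Mrc2 (1.36 ± 0.18), the receptor kinase Ddr2 (-1.14 ± 0.42) and Itga1 (-0.59 ± 0.14), an alpha integrin. In HC1 minus HC2, 2 were higher and 2 lower (44.4% of the tested, against 54.3% of all genes), led by Itga1 (-0.72 ± 0.14), Ddr1 (-0.40 ± 0.14) and Itga10 (0.31 ± 0.08). On the cell cycle mean (55.6% called, against 23.4% of all genes), 2 had positive and 3 negative slopes, led by Itga2 (-0.57 ± 0.08), Lair1 (-0.35 ± 0.08) and Mrc2 (0.21 ± 0.05).

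Of 13 genes for breakdown and its inhibition 9 were tested, and the highest was the membrane metalloproteinase Mmp15, at 81.2 to 320 RPKM. In SVZ minus HC1, 3 were higher and 2 lower (55.6% of the tested, against 34.1% of all genes), led by the inhibitor Timp1 (1.44 ± 0.30), the gelatinase Mmp2 (1.22 ± 0.20) and the collagenase Mmp14 (1.02 ± 0.31). In SVZ minus HC2, 5 were higher and 3 lower (88.9% of the tested, against 67.2% of all genes), led by Mmp14 (1.63 ± 0.29), Timp1 (1.60 ± 0.28) and Timp4 (-1.56 ± 0.25). In HC1 minus HC2, 2 were higher and 2 lower (44.4% of the tested, against 54.3% of all genes), led by Timp4 (-0.70 ± 0.25), Timp2 (0.51 ± 0.14) and Mmp16 (-0.48 ± 0.16), and on the cell cycle mean (22.2% called, against 23.4% of all genes) 1 gene had a positive and 1 a negative slope, Mmp15 (0.53 ± 0.05) and Timp3 (-0.23 ± 0.07). Of 12 matrix partners 8 were tested, and the highest was the collagen-binding Sparc, at 65.3 to 322 RPKM. In SVZ minus HC1, 3 were higher and 0 lower (37.5% of the tested, against 34.1% of all genes), namely Hspg2, which encodes the basement membrane proteoglycan perlecan (1.33 ± 0.21), Fn1 (fibronectin, 0.61 ± 0.20) and Prelp (0.33 ± 0.10). In SVZ minus HC2, 3 were higher and 1 lower (50% of the tested, against 67.2% of all genes), led by Fn1 (0.93 ± 0.19), Hspg2 (0.74 ± 0.20) and the nidogen gene Nid2 (-0.64 ± 0.18). In HC1 minus HC2, 0 were higher and 2 lower (25% of the tested, against 54.3% of all genes), Nid2 (-0.92 ± 0.18) and Hspg2 (-0.59 ± 0.20), and on the cell cycle mean (25% called, against 23.4% of all genes) Sparc (-0.51 ± 0.06) and Nid1 (-0.30 ± 0.06) had negative slopes and 0 genes a positive one.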

How the data were processed

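Paired reads of exome-captured total RNA libraries (TruSeq Stranded Total RNA, SureSelectXT Mouse All Exon, NovaSeq6000, per the labels' protocols) were summarised by the authors as RPKM per gene on mm10 (GRCm38), per the submitters' processing notes, which name FastQC 0.11.5 and DESeq2. Aligner, counter, gene lengths and strand use: not given in the sources used here. Values were deposited by the authors with decimal commas and blanks; blanks were read as 0, so a listed 0 may also be a missing estimate. Reads per gene were estimated from the smallest steps of the deposited values and used only to describe depth.

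The 16403 of 36724 genes that reached 0.5 RPKM in 3 or more of the 20 libraries were fitted on log2(RPKM + 1) with limma 3.58.1 in R 4.3.3 (trend and robust variance moderation), with 1 mean per group and the spread shared by 6 groups. A pseudocount of 1 understates differences of low genes. P-values were adjusted by Benjamini-Hochberg over all kept genes, with a threshold of 0.05, and limma was tested on simulated data. Region contrasts average both genotypes. Mouse numbers in titles recur in several groups and were treated as independent, and p-values measure only the spread between these libraries. The chains named were those called, those averaging 5 RPKM or more in a group and the 3 with the smallest p per knockout contrast. The member genes and all lists were chosen with earlier results of these data known. Alternatives changed the pseudocount, filter, normalization, weights, covariates, block and libraries.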

Additional observations from a re-analysis of the deposited data

Results flagged for a closer look

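In 3 of 42 groups of 4 libraries tested, 1 library stood apart from the other 3, by a gap over the group's range above the critical value of 0.829. Chance does so in about 1 of 20 groups. Col12a1 was at 1.97 RPKM in HC2 knockout 8 against 1.04 to 1.17 RPKM in the other HC2 knockouts (0.8353 of the range). Col6a1 was at 1.28 RPKM in the same library against 0.183 to 0.239 RPKM (0.9294). Col23a1 was at 0.525 RPKM in HC2 wild type 2 against 1.34 to 1.55 RPKM in the other HC2 wild types (0.831).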

How the results depend on the processing

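The knockout and interaction counts stayed at 0 of 21 in all 117 alternatives run for them. For SVZ minus HC1 (9 called) the count was 14 with array weights, 3 between knockout groups only, 4 without SVZ knockout 2 and SVZ wild type 3, and 7 to 10 without any 1 library. For SVZ minus HC2 (11) it was 17 with no filter, 5 with the cell cycle covariate, 7 between knockout groups only and 10 to 12 without any 1 library. For HC1 minus HC2 (10) it was 4 between knockout groups only and 8 to 12 without any 1 library. For the slope (5) it was 3 with a pseudocount of 0.1, 2 with no filter, 12 with array weights and 0 to 6 without any 1 library. The replicate number as a block gave 7 in SVZ minus HC2 and 5 in HC1 minus HC2. It is not known whether the numbers pair the libraries. Same-number correlations between genotypes were 0.00726, -0.0625 and -0.259 in the SVZ and -0.0470, -0.115 and -0.0286 in HC1. Those between different numbers lay between -0.203 and 0.252 in the SVZ, the highest for knockout 2 with wild type 3. In HC1 they lay between -0.0591 and 0.112. With the cell cycle covariate Col12a1 and Col16a1 turned to 0.088 and 0.073 in SVZ minus HC2 (limma adjusted p 0.798 and 0.822). Of 1004 alternative values for single genes 892 kept side and direction, 110 no longer passed and 2 turned. The 892 include genes of the knockout contrasts that were not called and stayed so. Calls held throughout for 3 of 9 genes in SVZ minus HC1, 4 of 11 in SVZ minus HC2, 1 of 10 in HC1 minus HC2 and 0 of 5 in the slope. In every alternative run, calls were kept by Col18a1, Col4a6 and Col27a1 in SVZ minus HC1, by Col18a1, Col4a6, Col5a3 and Col9a2 in SVZ minus HC2, and by Col23a1 in HC1 minus HC2. Col23a1 passed the filter through HC2 libraries only, so its direction there is a description. Where a setting moved a count, the cause was not tested. Depth limits Col23a1, estimated at 0 to 66.0 reads per library, and Col1a1, at 2.98 to 25.0 reads.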
